A study of Mus musculus with 15 samples.

Results

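The 43 genes described here drive or mark the cell division cycle, and they were picked by name from the 19464 rows of a liver RNA sequencing table. Every one of the 43 was listed on 1 row, and every one passed the filter on low counts in each comparison. They fall into 4 role groups: 6 cyclins of the G1 phase with their partner kinase Cdk2, 3 transcription factors, 11 genes of DNA replication and 23 genes of mitosis. The libraries came from livers of Stab1-/- mice, which lack the scavenger receptor Stabilin-1 (Clever-1) in the whole body, and of wildtype mice. Both genotypes were on a mixed C57BL/6N;129SvJ background, and the labels give no other allele and no treatment. Livers of 2-week-old animals gave 4 Stab1-/- and 4 wildtype libraries, and livers of embryos at day E17.5 of gestation gave 3 Stab1-/- and 4 wildtype libraries. Neither the labels nor the study's methods say whether the wildtype mice were littermates or how many animals went into a library, so p-values measure only the spread between these libraries.

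A cell that divides passes from G1, in which D-type and E-type cyclins switch on cyclin-dependent kinases, into S phase, in which the DNA is copied. The E2F factors turn on the replication genes at this step. Later in the cycle the factor Foxm1 and a complex that binds a promoter element called CHR (cell cycle genes homology region) turn on the mitotic genes. The fetal liver is also the main site of blood cell formation, so its dividing cells include erythroid precursors as well as young hepatocytes. The liver still grows after birth, and in the adult most hepatocytes rest outside the cycle.

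The promoters of the members were compared first, since the replication and mitotic groups differ in these elements. RefSeq promoter windows (GRCm38.p6, from 250 bases before to 50 bases after a gene's start, 300 bases in all) were given for 33 of the 43 members. A CHR, searched as TTTGAA on either strand, was in the window of 13 of 18 mitotic members (72.2%) and of 1 of 10 replication members, and matches could overlap other motifs. It was found in 20.2% of all 27025 genes that had a RefSeq promoter window, whether or not they were in the liver RNA table. An E2F site, searched on either strand as TTCCCGC or TTCGCGC and, with another core, as TTGCCGC or TTGGCGC, was in 7 of 10 replication members (70.0%), in 3 of 18 mitotic members (16.7%) and in 10.9% of all genes. A CCAAT box was in 16 of 18 mitotic and 8 of 10 replication members, against 41.1% of all genes. A match of letters is a description of the window and shows no binding. Windows are printed below for 5 of the 6 mitotic genes that passed the test between genotypes at 2 weeks (the window of the sixth, Ccna2, was not given) and for 3 replication genes as a contrast. The capitals mark CHR, E2F and CCAAT matches, and each sequence reads from 5′ to 3′ on the gene's own strand.
Kif23: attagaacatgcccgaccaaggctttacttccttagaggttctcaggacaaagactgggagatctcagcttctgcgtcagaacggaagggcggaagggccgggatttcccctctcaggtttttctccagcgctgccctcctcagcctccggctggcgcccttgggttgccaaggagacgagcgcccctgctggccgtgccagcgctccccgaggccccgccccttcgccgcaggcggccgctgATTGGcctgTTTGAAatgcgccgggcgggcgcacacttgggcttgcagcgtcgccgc
Top2a: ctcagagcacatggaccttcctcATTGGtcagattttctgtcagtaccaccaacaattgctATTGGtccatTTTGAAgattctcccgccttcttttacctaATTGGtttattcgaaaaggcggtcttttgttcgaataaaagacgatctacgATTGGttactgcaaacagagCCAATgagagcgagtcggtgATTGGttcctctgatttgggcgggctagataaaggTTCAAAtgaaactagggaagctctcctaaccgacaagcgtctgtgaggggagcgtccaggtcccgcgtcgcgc
Cdc20: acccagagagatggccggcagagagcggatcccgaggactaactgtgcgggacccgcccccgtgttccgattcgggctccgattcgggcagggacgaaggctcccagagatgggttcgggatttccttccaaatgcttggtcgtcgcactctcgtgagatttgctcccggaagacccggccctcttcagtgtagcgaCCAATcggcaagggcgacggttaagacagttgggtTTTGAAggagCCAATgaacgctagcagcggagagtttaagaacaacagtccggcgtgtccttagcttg
Cdca8: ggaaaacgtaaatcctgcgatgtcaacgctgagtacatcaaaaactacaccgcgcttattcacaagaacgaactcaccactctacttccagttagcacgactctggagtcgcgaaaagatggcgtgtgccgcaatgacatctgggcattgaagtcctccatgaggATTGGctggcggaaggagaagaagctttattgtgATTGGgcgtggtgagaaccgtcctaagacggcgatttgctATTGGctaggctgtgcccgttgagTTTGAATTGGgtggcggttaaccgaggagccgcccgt
Kif11: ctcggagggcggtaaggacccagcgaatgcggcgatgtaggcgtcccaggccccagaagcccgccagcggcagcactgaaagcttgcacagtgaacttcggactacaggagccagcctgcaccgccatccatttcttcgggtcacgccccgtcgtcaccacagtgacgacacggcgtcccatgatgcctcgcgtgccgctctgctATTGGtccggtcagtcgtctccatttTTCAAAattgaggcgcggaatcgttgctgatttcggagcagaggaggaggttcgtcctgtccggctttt
Mcm6: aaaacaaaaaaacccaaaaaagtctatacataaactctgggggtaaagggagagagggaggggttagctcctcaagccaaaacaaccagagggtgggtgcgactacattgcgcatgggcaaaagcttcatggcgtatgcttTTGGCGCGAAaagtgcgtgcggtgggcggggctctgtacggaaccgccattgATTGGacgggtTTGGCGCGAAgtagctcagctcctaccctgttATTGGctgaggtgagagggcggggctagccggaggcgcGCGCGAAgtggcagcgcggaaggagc
Mcm3: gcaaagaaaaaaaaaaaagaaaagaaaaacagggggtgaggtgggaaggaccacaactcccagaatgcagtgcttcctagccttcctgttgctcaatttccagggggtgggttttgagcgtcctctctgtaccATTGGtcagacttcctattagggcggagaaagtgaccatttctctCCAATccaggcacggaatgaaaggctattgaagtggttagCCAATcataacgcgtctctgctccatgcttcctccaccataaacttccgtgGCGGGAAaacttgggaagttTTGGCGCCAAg
Rrm1: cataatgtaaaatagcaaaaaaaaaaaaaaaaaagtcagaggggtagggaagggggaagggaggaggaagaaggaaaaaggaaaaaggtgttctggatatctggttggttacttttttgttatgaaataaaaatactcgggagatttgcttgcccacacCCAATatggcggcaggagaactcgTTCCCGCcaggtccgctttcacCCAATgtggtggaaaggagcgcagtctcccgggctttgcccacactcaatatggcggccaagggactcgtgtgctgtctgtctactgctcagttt

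The window of Kif23 is chr9:61946750-61947049 (minus strand), that of Top2a chr11:99024140-99024439 (minus strand), that of Cdc20 chr4:118437294-118437593 (minus strand), that of Cdca8 chr4:124936868-124937167 (minus strand) and that of Kif11 chr19:37376132-37376431 (plus strand). For the replication genes the windows are chr1:128359656-128359955 (minus strand) for Mcm6, chr1:20820263-20820562 (minus strand) for Mcm3 and chr7:102441445-102441744 (plus strand) for Rrm1. All 5 mitotic windows printed hold a CHR and a CCAAT box and none holds an E2F site. All 3 replication windows printed hold an E2F site and none holds a CHR. These 3 were picked as examples by no set rule, so the contrast between the printed windows is no result. Among the replication members not printed, Mcm2 had a CHR and no E2F site, and Pcna and Tyms had neither.

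**Figure D1:**
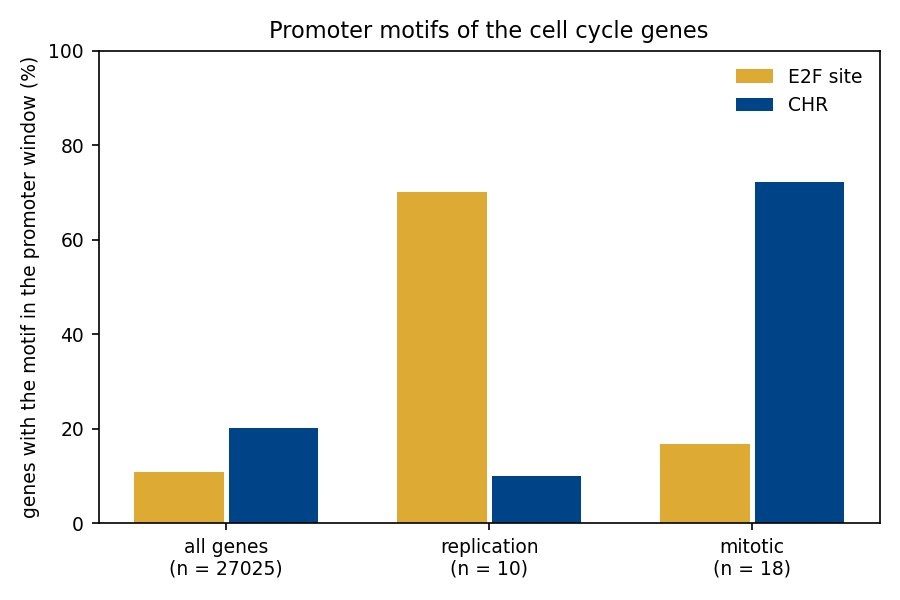
Share of genes, in percent, with an E2F site (yellow) or a CHR (blue) in the promoter window. Bars are for all 27025 genes that had a RefSeq window, the 10 replication members and the 18 mitotic members that had a window. E2F sites stood in 70.0% of the replication members and a CHR in 72.2% of the mitotic members.

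The depth of a library, as its reads on genes in units of 1000 reads, ran from 9659 to 10964. The targeted gene differed as the labels say: Stab1 was at 0.862, 0.911, 1.54 and 1.05 RPKM (reads scaled to gene length and library size) in Stab1-/- mice aged 2 weeks and at 9.15, 7.30, 9.68 and 11.03 RPKM in wildtype mice. At E17.5 it was at 4.29, 3.60 and 5.23 RPKM in Stab1-/- and between 14.9 and 21.8 RPKM in wildtype mice. Hepatocyte markers were high throughout, with Alb, which encodes albumin, between 37468 and 67858 RPKM. Markers of neighbouring organs were present in 5 of the 7 E17.5 libraries. Replicate 1 of Stab1-/- had the intestinal genes Vil1, Cdx1 and Cdx2 at 28.9, 6.46 and 11.2 RPKM, and replicate 3 had them at 2.84, 0.647 and 0.836 RPKM. The summed level of 9 pancreatic markers was 3483, 337 and 116 RPKM in replicates 2, 3 and 1 of the wildtype embryos and 106 RPKM in replicate 3 of Stab1-/-, against 14.998 to 33.3 RPKM in the other 3 libraries. Without the 2 libraries of highest level (replicate 1 of Stab1-/- and replicate 2 of wildtype) 0 members were called between genotypes at E17.5 and 43 with age in each genotype, the same counts as with them. Without all 5 the counts were again 0 and 43, with 1 library left in each E17.5 group and its spread assumed to be that of the 2-week libraries.

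In the livers of 2-week-old mice the cell cycle genes took a small share of the reads, and a smaller one in Stab1-/- than in wildtype mice. The 43 genes took 0.0755%, 0.0857%, 0.0814% and 0.0602% of the reads in the Stab1-/- libraries and 0.0984%, 0.0978%, 0.0988% and 0.109% in the wildtype libraries, so the groups did not overlap. At E17.5 they took between 0.630% and 0.765% in Stab1-/- and between 0.683% and 0.869% in wildtype mice, and the groups overlapped. These shares weigh long and abundant genes most, and the plot of levels shows the role groups with each gene weighted equally.

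**Figure D2:**
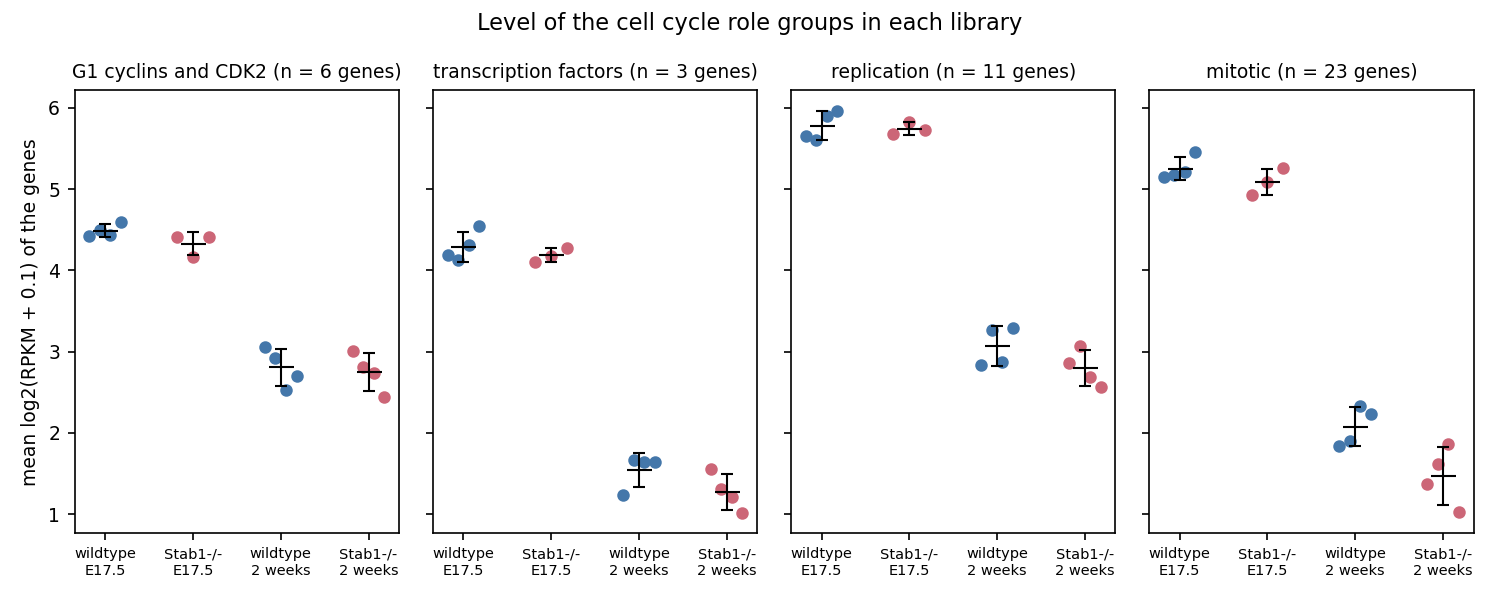
Level of each role group in each library, averaged over its genes on the log2(RPKM + 0.1) scale (y axis), for wildtype (blue) and Stab1-/- (red) mice at E17.5 and 2 weeks (x axis). Points are libraries and black bars the mean ± SD; all 4 role groups sit lower at 2 weeks, and the mitotic genes average 1.47 ± 0.36 in Stab1-/- against 2.08 ± 0.24 in wildtype mice at 2 weeks.

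The comparison of the genotypes at 2 weeks asked whether loss of Stabilin-1 changed the cycling genes in the growing liver. Of the 23 mitotic genes, 6 were lower in Stab1-/- than in wildtype mice by edgeR's quasi-likelihood test (Benjamini-Hochberg adjusted p under 0.05 over 12716 rows), and none was higher. DESeq2 called 17 of the 43 members lower and none higher, and of all 17879 rows it tested 441 lower and 420 higher. The 6 genes were Kif23, Ccna2, Top2a, Cdca8, Kif11 and Cdc20. Among all rows tested 1.74% were called lower and 0.936% higher. None of the 11 replication genes, the 6 G1 genes or the 3 transcription factors was called by edgeR; DESeq2 called 1, 0 and 1 of these. At an unadjusted p under 0.05, 20 mitotic, 6 replication, 2 G1 and 2 transcription factor genes were lower, 30 of the 43, against 12.3% of all rows. The estimate was below 0 for all 23 mitotic genes, with a median log2 fold change of -0.70, and for all 11 replication genes, with a median of -0.36, whereas the median of all rows was -0.01. The libraries of the 2 genotypes did not overlap for 7 members, all of them lower in Stab1-/- (Kif23, Ccna2, Top2a, Cdca8, Kif11, Plk1 and Ccnd3), against 4.50% of all rows.

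Kif23, a kinesin of the central spindle that is needed to split the daughter cells, had the lowest p of the 43 members. It was measured at 1.18, 1.07, 1.23 and 0.836 RPKM in Stab1-/- and at 1.89, 1.76, 1.94 and 2.13 RPKM in wildtype mice. Every Stab1-/- library lay below every wildtype library, although the gene rested on only 28 to 41 reads per Stab1-/- library and 60 to 78 per wildtype library. The level was 1.91-fold lower in Stab1-/- (log2 fold change -0.93 ± 0.17 SE, adjusted p = 0.0141 by edgeR), and this call held when any single library was left out.

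Ccna2 encodes cyclin A2, which acts in S phase and at the entry into mitosis. Its values were 4.98, 5.42, 5.49 and 3.92 RPKM in Stab1-/- and 6.93, 7.03, 10.4 and 9.35 RPKM in wildtype mice. The groups were separate, with wildtype replicates 3 and 4 well above replicates 1 and 2. Ccna2 was 1.82-fold lower in Stab1-/- (log2 fold change -0.86 ± 0.17 SE, adjusted p = 0.0208 by edgeR).

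Top2a, the topoisomerase that untangles the copied chromosomes, was at 5.13, 5.96, 6.61 and 4.05 RPKM in Stab1-/- and at 7.01, 7.83, 8.93 and 9.54 RPKM in wildtype mice. Here too no library of one group reached the other group, and the level was 1.64-fold lower in Stab1-/- (log2 fold change -0.71 ± 0.15 SE, adjusted p = 0.0330 by edgeR).

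Cdca8 encodes borealin, a part of the chromosomal passenger complex that corrects the attachment of chromosomes. It was at 2.24, 3.08, 3.31 and 2.27 RPKM in Stab1-/- and at 3.35, 5.33, 4.86 and 5.42 RPKM in wildtype mice, so that the lowest wildtype library lay just above the highest Stab1-/- library. Kif11, the kinesin that pushes the spindle poles apart, was at 2.55, 2.44, 2.52 and 1.80 RPKM in Stab1-/- and at 3.19, 2.95, 3.55 and 2.996 RPKM in wildtype mice, again without overlap. Cdc20, the activator of the complex that starts anaphase, was at 3.79, 5.22, 7.91 and 3.89 RPKM in Stab1-/- and at 7.14, 8.77, 12.2 and 10.8 RPKM in wildtype mice. Replicate 3 of Stab1-/- lay above the lowest wildtype library, so Cdc20 overlapped although it passed the test.

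Mki67, the gene of the proliferation marker Ki-67, was at 2.96, 3.66, 5.02 and 2.38 RPKM in Stab1-/- and at 4.83, 4.99, 7.61 and 7.66 RPKM in wildtype mice. The highest Stab1-/- library lay just above the 2 lowest wildtype libraries. Its log2 fold change was -0.95 ± 0.23 SE and did not pass the threshold (adjusted p = 0.0505 by edgeR). Cdk1, the kinase that drives cells into mitosis, was at 4.96, 6.15, 5.83 and 3.59 RPKM in Stab1-/- and at 6.35, 6.13, 8.33 and 7.60 RPKM in wildtype mice (log2 fold change -0.57 ± 0.17 SE, adjusted p = 0.0863). Bub1, a kinase of the spindle checkpoint, had the highest p of the mitotic genes, with 1.45 ± 0.276 RPKM in Stab1-/- and 1.54 ± 0.165 RPKM in wildtype mice (SD, n = 4 each).

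**Figure D3:**
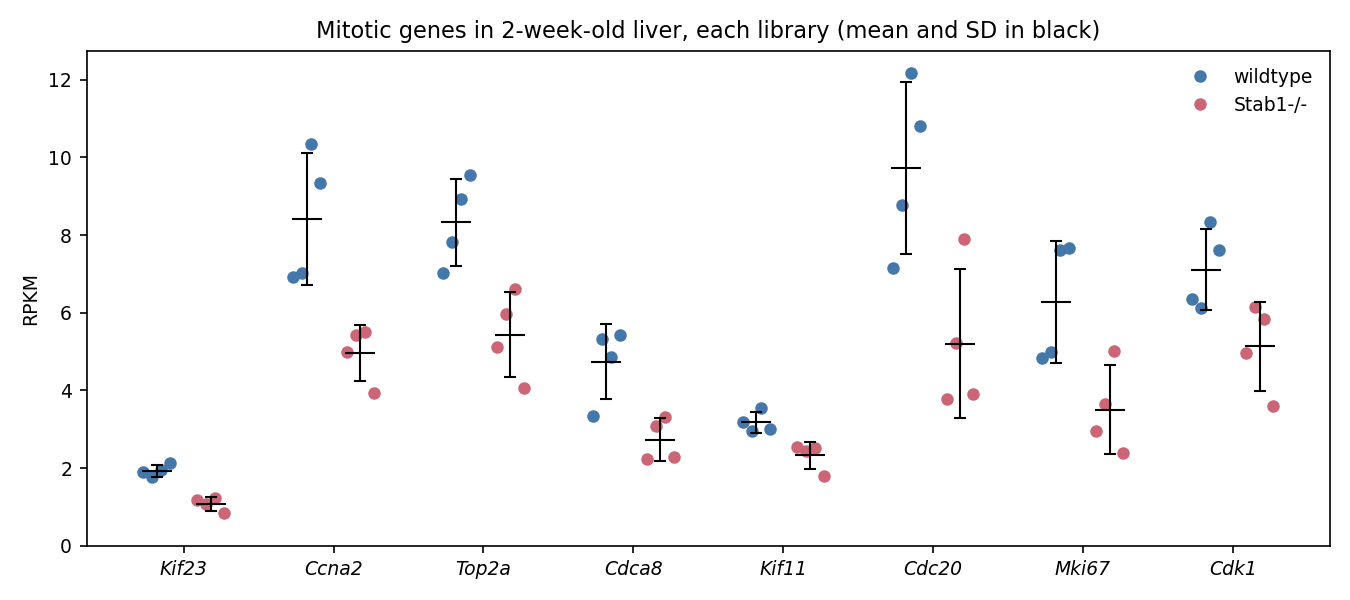
RPKM (y axis, linear from 0) of the 6 mitotic genes called at 2 weeks and of Mki67 and Cdk1, in each wildtype (blue) and Stab1-/- (red) library, with the mean ± SD in black. The 2 genotypes are separate for Kif23, Ccna2, Top2a, Cdca8 and Kif11, and they overlap for Cdc20, Mki67 and Cdk1.

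The replication genes were spread more narrowly between the genotypes. Rrm1, the large subunit of the enzyme that makes deoxynucleotides, had the lowest p of this group. It was at 7.08, 9.37, 7.30 and 5.70 RPKM in Stab1-/- and at 8.94, 9.91, 9.75 and 11.5 RPKM in wildtype mice, with replicate 2 of Stab1-/- inside the wildtype range (log2 fold change -0.54 ± 0.14 SE, adjusted p = 0.0667 by edgeR). Mcm2 is a subunit of the MCM helicase, the ring that opens the DNA for copying. It was at 3.75, 5.29, 3.52 and 3.74 RPKM in Stab1-/- and at 4.27, 5.37, 4.45 and 5.60 RPKM in wildtype mice, and the groups overlapped (log2 fold change -0.36 ± 0.16 SE, adjusted p = 0.191). The subunits Mcm3 and Mcm7 had log2 fold changes of -0.57 ± 0.18 SE and -0.43 ± 0.14 SE (adjusted p = 0.102 and 0.108). Tyms, the thymidylate synthase, was at 5.52 ± 1.10 RPKM in Stab1-/- and 5.78 ± 0.330 RPKM in wildtype mice (SD, n = 4 each).

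Of the transcription factors, Foxm1 was at 1.66, 1.29, 1.86 and 0.935 RPKM in Stab1-/- and at 1.68, 2.09, 3.02 and 2.86 RPKM in wildtype mice, with wildtype replicate 1 inside the Stab1-/- range (log2 fold change -0.85 ± 0.24 SE, adjusted p = 0.0761 by edgeR). E2f1, an activator of replication genes, had a log2 fold change of -0.53 ± 0.18 SE (adjusted p = 0.120), and E2f8, a repressor of the same family, one of 0.26 ± 0.16 SE (adjusted p = 0.368). In the G1 group 4 of the 6 log2 fold changes were below 0 and 2 were above, up to 0.52. Ccnd1, which encodes cyclin D1, was at 24.3, 34.7, 33.5 and 24.7 RPKM in Stab1-/- and at 69.7, 38.1, 28.9 and 37.1 RPKM in wildtype mice. Wildtype replicate 1 stood far above the other 7 libraries, and the difference did not pass the threshold (log2 fold change -0.65 ± 0.22 SE, adjusted p = 0.119). Cyclin D3, encoded by Ccnd3, was at 16.6, 19.3, 17.2 and 16.9 RPKM in Stab1-/- and at 20.3, 20.3, 23.3 and 20.02 RPKM in wildtype mice, without overlap (log2 fold change -0.35 ± 0.10 SE, adjusted p = 0.0877).

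At 2 weeks most mitotic genes and most replication genes peaked in different libraries, though not all of them. Most of both groups were lowest in the same libraries, again not all. Among the Stab1-/- livers, 18 of 23 mitotic genes were highest in replicate 3, whereas 8 of 11 replication genes were highest in replicate 2, which held 3 mitotic peaks, and the other 3 in replicate 1, which held 2. Among the wildtype livers, 15 mitotic genes were highest in replicate 3 and 7 in replicate 4, whereas 6 replication genes were highest in replicate 4 and 5 in replicate 2. Replicate 4 of Stab1-/- was lowest for 20 of 23 mitotic and 7 of 11 replication genes, and replicate 1 of wildtype for 13 and 7. In each genotype replicate 3 was lowest for 4 replication genes and 0 mitotic genes. Replicate 2 of wildtype was lowest for 8 mitotic genes and 0 replication genes. On the log2(RPKM + 0.1) scale the mitotic level minus the replication level was -0.99 ± 0.34 in wildtype and -1.33 ± 0.34 in Stab1-/- mice at 2 weeks (mean ± SD, n = 4 each), and the groups overlapped. At E17.5 it was -0.53 ± 0.10 in wildtype (n = 4) and -0.66 ± 0.16 in Stab1-/- mice (n = 3).

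Genes of the cycle outside the 43 were read from 3 further lists. Of 32 other mitotic genes, 5 were called lower in Stab1-/- mice at 2 weeks and none higher, against 1.74% and 0.936% of all rows. The median log2 fold change was -0.58. At an unadjusted p under 0.05, 21 were lower and none higher, against 12.3% of all rows lower, and DESeq2 called 9 lower. Pttg1, which encodes securin, was at 3.82, 5.07, 5.67 and 2.24 RPKM in Stab1-/- and at 8.78, 9.44, 9.92 and 8.67 RPKM in wildtype mice. The groups were well apart, and Pttg1 was 2.34-fold lower in Stab1-/- (log2 fold change -1.23 ± 0.21 SE, adjusted p = 0.0114 by edgeR). Cenph, a kinetochore protein, and Ncapd2, a condensin subunit, had log2 fold changes of -0.93 ± 0.20 SE and -0.84 ± 0.18 SE (adjusted p = 0.0338 and 0.0349), and Incenp and Prc1, named after their values were seen, were the other 2 genes called. None of the 25 other replication genes tested was called, with a median of -0.27. At an unadjusted p under 0.05, 7 of them were lower and none higher, against 12.3% of all rows lower, and DESeq2 called 1. The maintenance methyltransferase Dnmt1 came nearest, at 3.24, 3.81, 3.61 and 2.95 RPKM in Stab1-/- and 3.92, 4.84, 4.61 and 6.14 RPKM in wildtype mice (log2 fold change -0.62 ± 0.15 SE, adjusted p = 0.0506).

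Among 20 inhibitors of the cycle, 18 were tested and 1 was called, in the same direction as the mitotic genes, against 1.74% of all rows called lower. Cdkn1c, which encodes the CDK inhibitor p57, was at 11.5, 12.7, 13.2 and 10.4 RPKM in Stab1-/- and at 23.5, 23.9, 18.9 and 20.3 RPKM in wildtype mice. No library of one group came near the other, and Cdkn1c was 1.92-fold lower in Stab1-/- (log2 fold change -0.94 ± 0.10 SE, adjusted p = 0.000808 by edgeR). E2f7, a repressor, had a log2 fold change of -0.88 ± 0.26 SE (adjusted p = 0.0853) and Btg2, an antiproliferative gene, one of -0.51 ± 0.18 SE (adjusted p = 0.126). The median over the list was -0.09.

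In bulk tissue fewer cells of a type and less RNA per cell cannot be told apart, so marker genes of cell types were read beside these differences. Stellate cell and fibroblast markers moved the same way: 4 of 8 were called lower in Stab1-/- mice at 2 weeks, against 1.74% of all rows. The summed level of the 8 was 244 to 257 RPKM in Stab1-/- and 266 to 326 RPKM in wildtype mice. Col1a1, Col1a2 and Col3a1, genes of fibrillar collagens, had log2 fold changes of -1.03 ± 0.21 SE, -0.97 ± 0.15 SE and -0.75 ± 0.15 SE (adjusted p = 0.0255, 0.00618 and 0.0229 by edgeR). Of 7 endothelial markers 1 was called lower, Kdr; all 7 estimates were below 0 (median log2 fold change -0.29), 4 had an unadjusted p under 0.05, DESeq2 called 2, and the summed level was 74.1 to 85.7 RPKM in Stab1-/- and 77.8 to 94.6 RPKM in wildtype mice. No erythroid marker was called among the 7 tested of 13 by edgeR or DESeq2; 5 of the 7 estimates were below 0 (median log2 fold change -0.47), and 2 of these had an unadjusted p under 0.05. Summed over all 13, tested or not, the level was 109 to 136 RPKM in Stab1-/- and 73.9 to 135 RPKM in wildtype mice. This sum weighs abundant genes most. The defining gene Slc4a1 was at or under 2.002 RPKM in every 2-week library. Hepatocyte markers were lower in Stab1-/- mice for 5 of 10 genes without overlap, Alb among them, against 4.50% of all rows. The summed level of the 10 was 86988 to 109773 RPKM in Stab1-/- and 111343 to 136603 RPKM in wildtype mice. None of the 10 hepatocyte markers, of 9 leukocyte and megakaryocyte markers tested, or of 6 Kupffer cell markers was called by edgeR. DESeq2 called 2 hepatocyte markers lower and none of the others. At an unadjusted p under 0.05, 4 hepatocyte markers were lower, 0 leukocyte and megakaryocyte markers differed and 2 Kupffer cell markers were higher. Of the 6 Kupffer cell estimates 5 were above 0 and 1 was below (median log2 fold change 0.24). The summed level of the Kupffer cell markers was 287 to 385 RPKM in Stab1-/- and 207 to 315 RPKM in wildtype mice, with overlap. The part of these cell types in the mitotic difference was not tested.

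The count of 6 members at 2 weeks moved with the libraries used, and the directions did not. Leaving out replicate 1 or 4 of Stab1-/- or replicate 3 or 4 of wildtype left 1 member called, Kif23, and leaving out replicate 2 of Stab1-/- left 3. The direction of all 43 members was the same under each of the 20 alternatives tried.

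The genotypes were compared at E17.5 in the same way. No member was called in either direction by edgeR among 13388 rows tested, nor by DESeq2, where edgeR called 0.194% of all rows higher and 0.172% lower. At an unadjusted p under 0.05, 2 of the 43 were lower, against 5.95% of all rows, and the libraries of the genotypes did not overlap for 3 members, Cdk2, Pcna and Kif11, all lower in Stab1-/-, against 9.30% of all rows. The median log2 fold change was -0.06 for the mitotic and 0.07 for the replication genes, and 0.00 for all rows. None of the other mitotic genes, other replication genes or inhibitors was called at E17.5 by edgeR or by DESeq2, and 2, 2 and 1 of them had an unadjusted p under 0.05.

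Kif11 had the lowest p of the mitotic genes at E17.5. It was at 29.7, 34.01 and 39.1 RPKM in Stab1-/- and at 40.0, 47.3, 44.1 and 55.9 RPKM in wildtype embryos, with the highest Stab1-/- library just under the lowest wildtype library (log2 fold change -0.38 ± 0.13 SE, adjusted p = 0.256 by edgeR). Kif23 was at 16.0, 18.9 and 21.5 RPKM in Stab1-/- and at 22.0, 20.9, 21.1 and 28.8 RPKM in wildtype embryos, and the groups overlapped (log2 fold change -0.24 ± 0.13 SE, adjusted p = 0.477). Mki67 was at 145, 152 and 205 RPKM in Stab1-/- and at 154, 150, 166 and 212 RPKM in wildtype embryos, and Top2a at 82.4, 94.9 and 102 RPKM and at 86.4, 90.6, 98.4 and 119 RPKM. Their log2 fold changes, 0.03 ± 0.15 SE and -0.02 ± 0.12 SE, changed sign with the setting used (adjusted p = 0.940 and 0.965). Ccne2, which encodes cyclin E2, had the lowest p of the G1 genes, at 8.80, 8.22 and 12.5 RPKM in Stab1-/- and 14.2, 18.04, 10.6 and 14.1 RPKM in wildtype embryos (log2 fold change -0.47 ± 0.18 SE, adjusted p = 0.338). Ccnd2, which encodes cyclin D2, was at 12.6 RPKM in Stab1-/- replicate 1, the library with the most intestinal markers, and between 6.23 and 7.54 RPKM in the other 6 libraries.

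**Figure D4:**
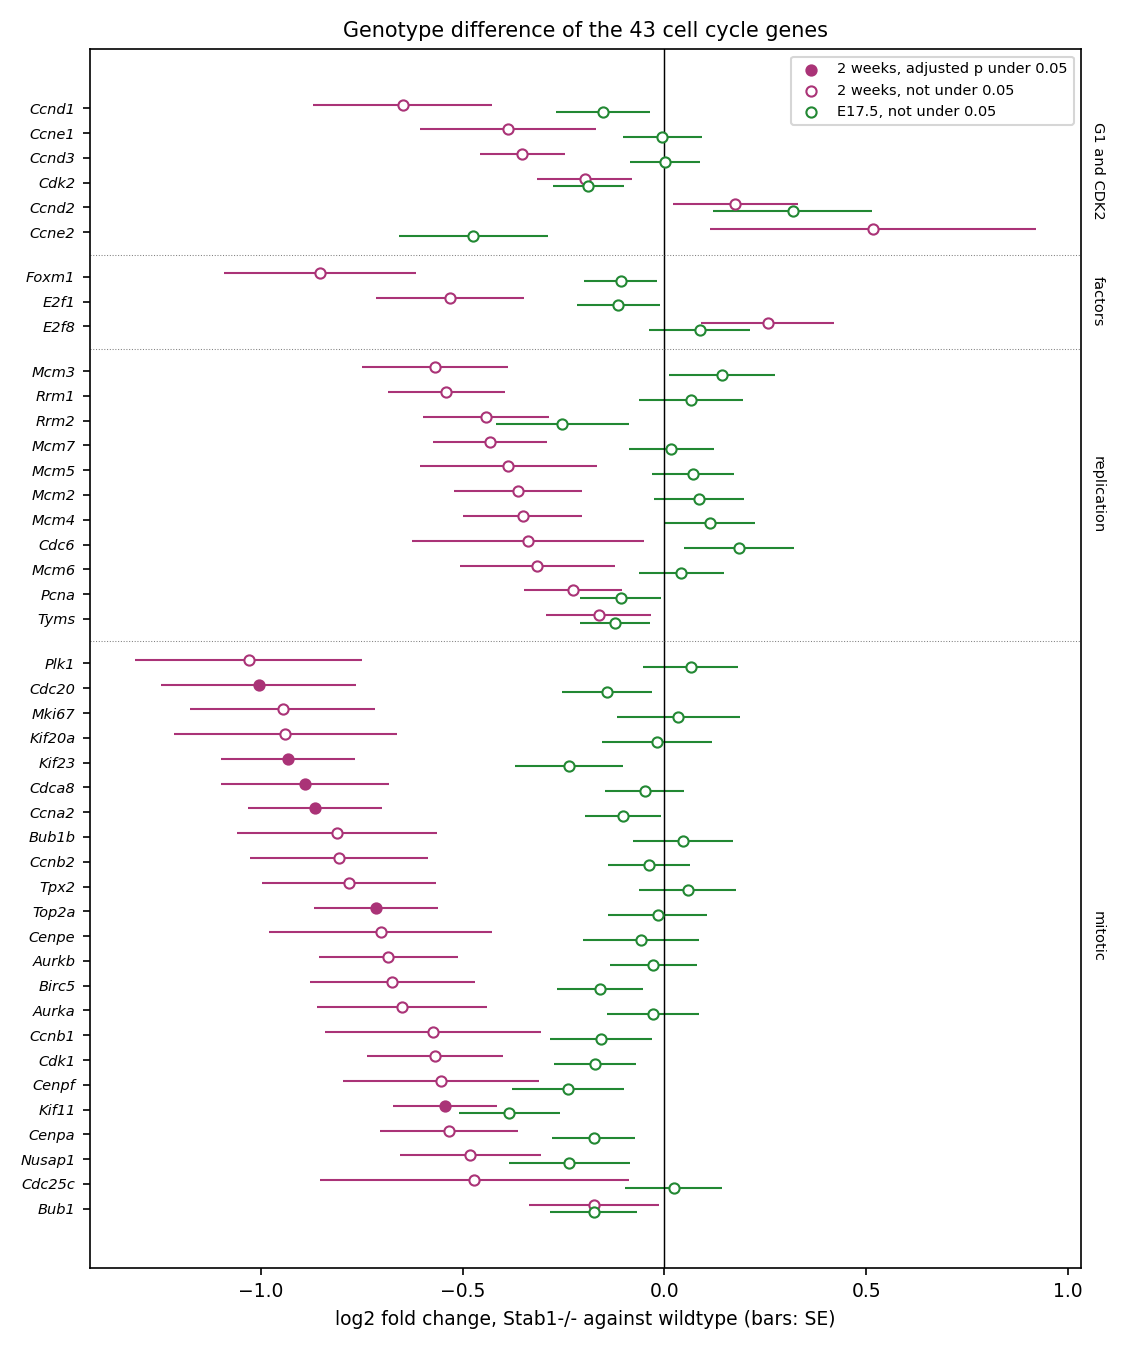
Log2 fold change of Stab1-/- against wildtype (x axis, bars ± SE) for the 43 genes by role group at 2 weeks (purple) and E17.5 (green); filled points passed an adjusted p of 0.05 by edgeR. At 2 weeks all mitotic and replication estimates lie below 0 and 6 mitotic genes are filled, whereas the E17.5 estimates lie on both sides of 0 and none is filled.

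Whether the genotype effect itself differed between the ages was tested by an interaction in 1 fit of all 15 libraries. None of the 43 members passed, where 1.81% of the 13885 rows did. At an unadjusted p under 0.05, 19 members, 13 of them mitotic, had an effect more negative at 2 weeks than at E17.5, against 11.1% of all rows. The median was 0.62 for the mitotic genes and -0.01 for all rows. DESeq2 called 7 mitotic genes (Mki67, Top2a, Ccna2, Cdca8, Aurkb, Plk1 and Tpx2), all more negative at 2 weeks. Of all 19177 rows DESeq2 tested, it called 599 in that direction and 429 in the other. The lowest p belonged to Ccna2, whose effect at E17.5 exceeded that at 2 weeks by 0.73 ± 0.20 SE on the log2 scale (adjusted p = 0.0663 by edgeR). The lower mitotic genes at 2 weeks were therefore not shown to be particular to that age.

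Of the cell cycle genes outside the 43, Pttg1 and Cdkn1c passed this test. Pttg1 turned: at E17.5 it was at 27.0, 35.2 and 38.9 RPKM in Stab1-/- and at 21.8, 16.6, 22.0 and 8.53 RPKM in wildtype embryos, all Stab1-/- libraries above all wildtype libraries, although the difference at this age alone did not pass the threshold (log2 fold change 1.02 ± 0.28 SE, adjusted p = 0.187 by edgeR). Its effect at E17.5 exceeded that at 2 weeks by 2.22 ± 0.39 SE (adjusted p = 0.0186). Cdkn1c was at 241, 252 and 162 RPKM in Stab1-/- and at 212, 195, 226 and 175 RPKM in wildtype embryos, with the groups mixed. Its interaction was 1.08 ± 0.20 SE (adjusted p = 0.0214 by edgeR). It did not pass without the 2 libraries of highest level in markers of other organs (1.03, adjusted p = 0.115 by edgeR). Without all 5 such libraries the estimate was 1.61, but only 1 library was left in each E17.5 group, so this fit cannot decide whether the interaction holds.

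The comparison of the ages within each genotype followed the cycling genes from the blood-forming fetal liver to the young liver. In wildtype mice 42 of the 43 members were lower at 2 weeks than at E17.5 and 1, Ccnd1, was higher, and the same held in Stab1-/- mice. Among all 13885 rows, 37.5% were called lower and 34.4% higher in wildtype, and 36.9% lower and 35.4% higher in Stab1-/- mice. The groups did not overlap for any of the 43 genes in either genotype, 42 of them lower and 1 higher at 2 weeks. Among all rows the groups did not overlap for 47.3% (lower) and 20.9% (higher) in wildtype and for 43.7% and 27.4% in Stab1-/- mice. The median log2 fold change of the mitotic genes was -3.03 in wildtype and -3.46 in Stab1-/- mice, and that of the replication genes -2.19 and -2.73. The medians of all rows were -0.03 and -0.02, and 4.75% of all rows in wildtype and 3.94% in Stab1-/- mice lay at or below the mitotic median. With scaling by library totals the median of all rows moved to -0.38 in wildtype and -0.25 in Stab1-/- mice, and the mitotic medians stayed far below it.

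Mki67 fell most. Folds here come from the TMM-scaled counts of the fit and, for the genes that fell, are smaller than the ratio of the RPKM levels. It went from 171 ± 28.4 RPKM at E17.5 to 6.27 ± 1.57 RPKM at 2 weeks in wildtype mice (SD, n = 4 each), 21.2-fold lower (log2 fold change -4.41 ± 0.24 SE, adjusted p = 4.18e-11 by edgeR). In Stab1-/- mice it went from 167 ± 32.6 RPKM (n = 3) to 3.51 ± 1.14 RPKM (n = 4), 40.8-fold lower (log2 fold change -5.35 ± 0.26 SE, adjusted p = 1.13e-11). Top2a was 9.25-fold lower in wildtype and 14.7-fold lower in Stab1-/- mice, Cdk1 4.61-fold and 5.92-fold. Cenpa, the centromeric histone, fell least of the mitotic genes, with log2 fold changes of -1.65 and -1.97.

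Among the replication genes Cdc6, which loads the MCM helicase onto DNA, fell most. Its values at E17.5 were between 10.9 and 16.3 RPKM over both genotypes, and at 2 weeks it lay between 0.347 and 0.985 RPKM, on 17 to 45 reads per library, the lowest level of all members. Its log2 fold change was -4.03 ± 0.21 SE in wildtype and -4.52 ± 0.22 SE in Stab1-/- mice (adjusted p = 2.61e-11 and 1.65e-11 by edgeR). Rrm2, the small and cycle-regulated subunit of ribonucleotide reductase, had log2 fold changes of -3.56 in wildtype and -3.72 in Stab1-/- mice, and Mcm2 of -2.99 and -3.41. Mcm6, another MCM subunit, had log2 fold changes of -1.55 and -1.88, so the subunits of the helicase did not fall evenly. Tyms fell least, 2.02-fold and 2.03-fold on the scale of the fit, with RPKM levels that went from 14.9 ± 1.12 to 5.78 ± 0.330 RPKM in wildtype mice (SD, n = 4 each). Pcna, the sliding clamp of the DNA polymerases, had the highest level per length of all members in each of the 4 groups, at 265 ± 13.3 RPKM in wildtype at E17.5 and 51.0 ± 5.94 RPKM at 2 weeks.

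The order of levels changed with age. In wildtype embryos Pcna was followed by Mki67 at 171 ± 28.4, Rrm2 at 155 ± 35.5 and Ccnd3 at 102 ± 9.41 RPKM, of which Mki67 and Rrm2 did not differ beyond their spread. At 2 weeks it was followed by Ccnd1 at 43.4 ± 17.96, Mcm6 at 22.8 ± 5.93 and Ccnd3 at 21.0 ± 1.57 RPKM, and no neighbours in this order differed beyond their spread (SD, n = 4 each).

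The G1 cyclins took different courses. Ccnd1 rose, from 17.3, 17.8, 16.6 and 20.8 RPKM in wildtype embryos to 28.9 to 69.7 RPKM at 2 weeks, 3.03-fold higher (log2 fold change 1.60 ± 0.20 SE, adjusted p = 2.12e-06 by edgeR), and from 17.4, 12.4 and 17.3 RPKM to 24.3 to 34.7 RPKM in Stab1-/- mice (log2 fold change 1.14 ± 0.22 SE, adjusted p = 0.000228). Every 2-week library lay above every E17.5 library in both genotypes. Ccnd3 had log2 fold changes of -1.93 in wildtype and -2.24 in Stab1-/- mice, Ccne1, which encodes cyclin E1, of -2.57 and -2.92, and Cdk2 of -1.45 and -1.42. Ccne2 had log2 fold changes of -2.60 and -1.58 and spread widely within the groups at 2 weeks, from 0.837 to 5.16 RPKM. Of the transcription factors E2f8 had log2 fold changes of -2.84 and -2.64, E2f1 of -2.26 and -2.65 and Foxm1 of -2.16 and -2.87.

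**Figure D5:**
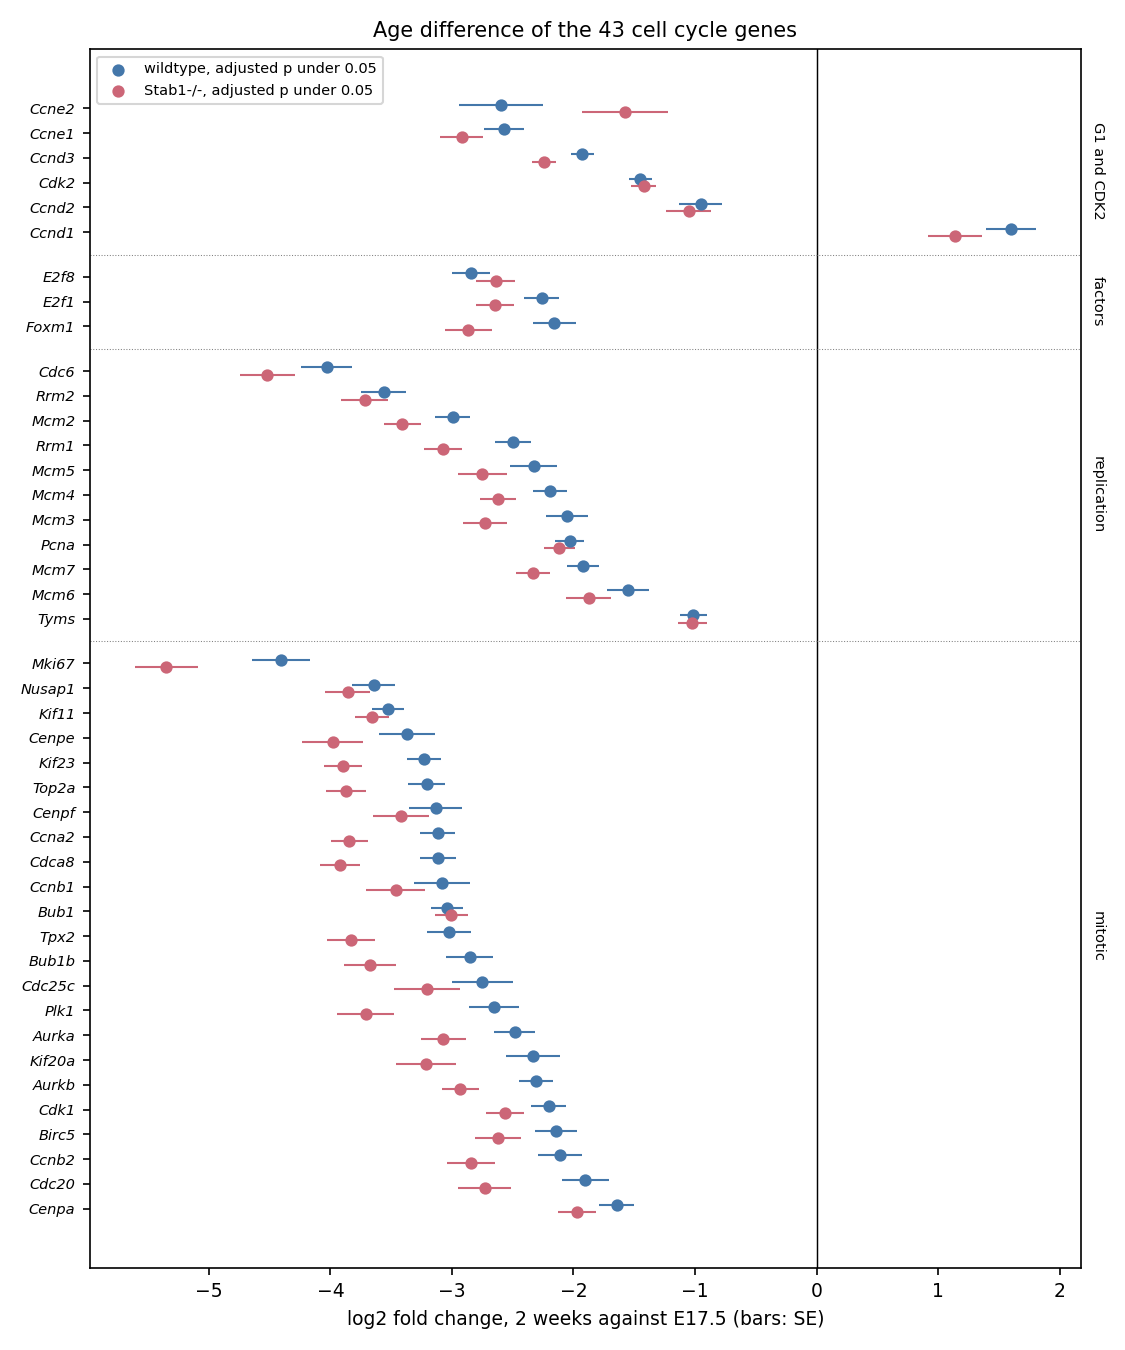
Log2 fold change of 2 weeks against E17.5 (x axis, bars ± SE) for the 43 genes by role group in wildtype (blue) and Stab1-/- (red) mice; all points passed an adjusted p of 0.05 by edgeR. Ccnd1 alone lies above 0, Mki67 lies lowest at -4.41 and -5.35, and Tyms is nearest to 0 of the replication genes.

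The genes outside the 43 fell as well, with few exceptions. In wildtype mice 31 of 32 other mitotic genes and 25 of 26 other replication genes were called lower at 2 weeks, against 37.5% of all rows, with medians of -2.62 and -2.12. The mitotic exception, named after its values were seen, was Pttg1, which encodes securin and did not pass in wildtype mice (log2 fold change -0.56 ± 0.26 SE, adjusted p = 0.0620). In Stab1-/- mice 32 and 24 of them were called lower, against 36.9% of all rows. In each genotype 1 of the other replication genes was higher, and in Stab1-/- mice the thymidine kinase Tk1, also named after its values were seen, did not pass (log2 fold change -0.25 ± 0.12 SE, adjusted p = 0.0575). Of the 18 inhibitors tested 15 were called lower in wildtype and 14 in Stab1-/- mice, against 37.5% and 36.9% of all rows. Most genes listed as brakes thus changed in the same direction as the drivers. Rb1, the retinoblastoma protein, had log2 fold changes of -3.05 in wildtype and -3.27 in Stab1-/- mice, and Fzr1, an activator of the anaphase complex in G1, of -3.04 and -3.11. The inhibitor called higher was Rbl2, a pocket protein of resting cells, in wildtype mice (0.68 ± 0.20 SE, adjusted p = 0.00522) and Cdkn1a, which encodes p21, in Stab1-/- mice (1.19 ± 0.29 SE, adjusted p = 0.00135).

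Blood cell markers moved with age beside these genes. All 13 erythroid markers were lower at 2 weeks in both genotypes, with a median log2 fold change of -8.47 in wildtype and -8.54 in Stab1-/- mice, and their summed level went from 2738 to 3390 RPKM in wildtype embryos to 73.9 to 135 RPKM at 2 weeks. Slc4a1, the anion exchanger of red cells, was at 756 ± 101 RPKM in wildtype embryos and 1.45 ± 0.517 RPKM at 2 weeks, and Alas2, the erythroid enzyme of haem synthesis, was at 610 ± 52.9 and 36.6 ± 9.28 RPKM (SD, n = 4 each). All 10 leukocyte and megakaryocyte markers tested were lower too. Hepatocyte markers mostly went the other way. By edgeR 8 of 10 were called higher in wildtype and 7 of 10 in Stab1-/- mice, against 34.4% and 35.4% of all rows, and none was called lower. DESeq2 called 9 higher in wildtype, and 7 higher and 1 lower in Stab1-/- mice. The edgeR estimate was below 0 for 1 marker in wildtype and 2 in Stab1-/- mice. How much of the fall of the cell cycle genes came with the blood cells and how much with hepatocytes cannot be told apart in these bulk libraries.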

How the data were processed

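RNA of whole mouse liver was sequenced at BGI from standard Illumina libraries. The authors deposited 1 table with uniquely mapped read counts per gene, RPKM values (reads scaled to gene length and to the reads counted on genes) and the percent of each gene covered by reads for every library, replicates not pooled. The aligner, the counter, the strand setting, the annotation and the genome build are not given in the sources used here, so reads shared with near-identical or overlapping genes could not be checked. The deposited counts were tested as they stood, the deposited RPKM values gave the levels, and the coverage percentages were not used.

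The 43 members were rows with the listed gene symbols. Members and gene lists were chosen with earlier results of these data known. Genotypes were compared within an age, and ages within a genotype and the interaction in 1 fit of all 15 libraries, by edgeR 4.0.16 (R 4.3.3; TMM scaling, low rows removed by filterByExpr, min.count 10, min.total.count 15, quasi-likelihood test, Benjamini-Hochberg adjustment over all rows tested). A gene is called at an adjusted p under 0.05; a standard error is the absolute log2 fold change over the square root of F. Tests were checked on simulated counts. Alternatives were DESeq2 1.42.0, limma 3.58.1 on log2(RPKM + 0.1, 0.01 or 1) with RPKM of at least 0.5 in 3 libraries, median-of-ratios or library-total scaling, no filter, a GC offset (GC was known for 92.7% of rows), a replicate block, the other choice of libraries in the fit, and leaving out each library. Statistics were given for the 3 genes of lowest and the 1 of highest p of a role group, for Mki67, Top2a, Cdk1, Mcm2 and Ccnd1, for the 3 genes of lowest p of the other cell cycle lists and the first 3 of marker lists; genes outside this rule are said to be so or were named as members called. A count of 0 allows up to 3 reads, counting error only. The replicate numbers were not treated as pairs. Some genes of the lists are counted but not reported by name here.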

Additional observations from a re-analysis of the deposited data

Results flagged for a closer look

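Of 144 sets of 4 libraries examined, 13 had 1 library far from the other 3, or 9.03%. Chance flags about 1 in 20 of independent sets. These sets were drawn from the same libraries, so whether 9.03% exceeds chance cannot be told. Replicate 4 of the E17.5 wildtype embryos was high for 4 mitotic genes: Ccnb1 at 81.4 RPKM against 66.9 to 67.9, Cdca8 at 60.6 against 49.0 to 50.8, Bub1b at 30.0 against 20.9 to 22.1 and Kif23 at 28.8 against 20.9 to 22.0. In the same group Pcna was high in replicate 3, at 285 RPKM against 256 to 260. Among the 2-week-old Stab1-/- libraries the replication genes Mcm2 and Mcm3 were high in replicate 2, at 5.29 RPKM against 3.52 to 3.75 and at 7.63 against 5.34 to 5.62. In that group Ccne1 was high in replicate 1 (3.96 RPKM against 2.25 to 2.43), Cdc25c, the phosphatase that activates Cdk1, was high in replicate 3 (1.23 against 0.529 to 0.633), and Kif11 was low in replicate 4 (1.80 against 2.44 to 2.55). Among the 2-week-old wildtype libraries Ccnd3 was high in replicate 3 (23.3 RPKM against 20.02 to 20.3), the mean log2(RPKM + 0.1) of the transcription factors was low in replicate 1 (1.23 against 1.64 to 1.67), and the share of reads on the 43 genes was high in replicate 4 (0.109% against 0.0978% to 0.0988%).

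The genotype effect differed between the ages for genes outside the members, by the interaction in edgeR. The effect at E17.5 minus that at 2 weeks was 2.22 for Pttg1 on the log2 scale (adjusted p = 0.0186) and 1.08 for Cdkn1c (adjusted p = 0.0214; 0.0522 without replicate 2 of the E17.5 wildtype embryos and 0.0567 without replicate 1 of the E17.5 Stab1-/- embryos). For Stab1 itself it was 1.24 (adjusted p = 0.0310), the deficit being smaller at E17.5. The endothelial marker Kdr had an interaction of 0.68 ± 0.13 SE (adjusted p = 0.0270).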

How the results depend on the processing

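All 43 members kept their direction under every alternative tried at 2 weeks and with age in both genotypes, whereas 21 of 43 did at E17.5 and 36 of 43 in the interaction. The 6 calls at 2 weeks became 0 with limma on log2(RPKM + 0.1) without a filter, 1 with the filter, 1 with log2(RPKM + 0.01), 2 with log2(RPKM + 1), 2 with library totals, 10 with edgeR without a filter, 16 with all 15 libraries in 1 fit and 17 with DESeq2; leaving out single libraries gave 1 to 9. The interaction had 0 calls, 7 with DESeq2 and 0 to 3 without single libraries. At E17.5 the count stayed 0 and with age 43 under every alternative. The causes of these changes were not tested.

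The deviations of same-numbered libraries correlated at 0.182, -0.004, 0.112 and 0.125 at 2 weeks and at 0.011, -0.103 and -0.163 at E17.5; since not every pair was above 0.1 and the labels name nothing shared, the numbers were not treated as pairs. With the replicate block the calls at 2 weeks were 21, while those over all rows went from 119 higher and 221 lower to 642 and 539; with a GC offset added they were 15, and 365 and 352. Those of the interaction were 5 and 7. The block also turned Top2a at E17.5 to 0.064, and to 0.13 with the GC offset.

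The mitotic median with age in wildtype mice (-3.03) was -3.38 with log2(RPKM + 0.01), -3.31 with log2(RPKM + 0.1) with or without the filter, -2.80 with log2(RPKM + 1), -3.38 with library totals, -2.79 with the GC offset and -2.79 with the block and the GC offset. The replication median (-2.19) was -2.55, -2.53 (with or without the filter) and -2.54 under the first, second and library-total settings. In Stab1-/- mice the mitotic median (-3.46) was -3.78, -3.75 and, with log2(RPKM + 1), -3.16, and the replication median (-2.73) was -2.97, -2.95 and -2.96. The mitotic median of the interaction (0.62) was 0.38 with log2(RPKM + 1). At E17.5 Mki67 turned to -0.032 under all 4 limma settings and -0.028 with library totals and ranged from -0.13 to 0.14 without single libraries. Top2a turned to 0.034 with the GC offset and 0.039 without the 2 libraries of highest level in markers of other organs, an alternative chosen after seeing the data, and ranged from -0.081 to 0.081 without single libraries. Ccnd2 turned to -0.046 without these 2 libraries and ranged from -0.040 (without replicate 1 of Stab1-/-) to 0.48 without single libraries. Without all 5 E17.5 libraries with such markers, also chosen after seeing the data and fitted with the 2-week libraries, 5 genes turned at E17.5: Ccnd2 to -0.13, E2f8 to -0.12, Mki67 to -0.33, Cdkn1a to 0.097 and Dut to 0.061. Each of these values rests on 1 library of each genotype at E17.5, so the turns cannot be laid to the markers.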
